A study of Mus musculus with 6 samples.

Results

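The chains of type IV collagen were followed, probe by probe, in primary mouse astrocytes after transfection with miR-29. The 6 genes are Col4a1, Col4a2, Col4a3, Col4a4, Col4a5 and Col4a6. All non-control probes whose RefSeq transcript maps to 1 of these symbols were taken, which gave 11 of the 41174 non-control probes of the array and 6 of the 18353 genes they could be matched to, and the probes of a gene were kept apart. Of these, 9 probes for 5 genes were bright enough to be tested, and both probes of Col4a3 were not.

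The cells came from the cerebral cortex of C57BL/6 mice at embryonic day 18 and were bought as a primary culture. All groups were transfected 3 weeks after plating, at 80 nM, and harvested 48 h later. The miR-29 group (3 arrays) received precursors for the a, b and c members of the miR-29 family mixed 1 to 2 to 1, and the control group (3 arrays) a negative control precursor; the protocol puts the transfection efficiency above 90%. The protocol speaks of triplicate RNA extraction, with no word on whether separate cultures were used. The p-values therefore cover only how far these samples scatter, and that scatter may be technical.

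Type IV collagen forms the network of basement membranes, the thin matrix sheets under epithelia and endothelia and around muscle and nerve. Its chains wind into triple helices in fixed combinations: Col4a1 with Col4a2 in nearly all basement membranes, Col4a3 with Col4a4 and Col4a5 in a few such as that of the kidney glomerulus, and Col4a5 with Col4a6 in skin and around smooth muscle. In the brain, astrocyte endfeet rest on the basement membrane of blood vessels and of the brain surface, and astrocytes contribute to it. MicroRNAs lower messenger RNAs that pair with their seed, bases 2 to 8, and collagen mRNAs are among the best known targets of the miR-29 family.

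The mature sequences of the transfected family show why it acts as 1 family: the 3 share the same seed, printed in capitals. They are given as RefSeq has them for the mouse (build GRCm38.p6), 5′ to 3′, while the precursors used carry the human names.
mmu-miR-29a-3p: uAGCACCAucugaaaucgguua
mmu-miR-29b-3p: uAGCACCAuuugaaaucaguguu
mmu-miR-29c-3p: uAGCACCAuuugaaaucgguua
The first 9 bases are the same in all 3. Counted from the 5′ end, miR-29c differs from miR-29a by C10U, and miR-29b by C10U, G18A, U21G and A22U with 1 more base at its 3′ end.

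The genes lie in pairs of neighbours that are read in opposite directions, Col4a1 and Col4a2 on chromosome 8, Col4a3 and Col4a4 on chromosome 1, and Col4a5 and Col4a6 on chromosome X. Promoter windows, 250 bases before to 50 after a start, were matched for 5 of the 6 genes. Those of Col4a1 and Col4a2 share 78 bases, and the shared part holds a CTC box (CCCTCCCC), a motif known from this bidirectional promoter, shown in capitals on both strands of chr8:11312781-11312810 (GRCm38.p6).
Col4a2 strand (+): ttggcgctgccCCCTCCCCtcggcagtgcg
Col4a1 strand (-): cgcactgccgaGGGGAGGGggcagcgccaa
Searched on both strands, CCCTCCCC was present in 10.8% of the 32851 promoter windows, and among the chain genes in those of Col4a1, Col4a2 and Col4a5. The CCAAT box (CCAAT) was found in the windows of the same 3 genes and in 37.4% of all windows, and the GC box (GGGCGG) in those of Col4a1, Col4a2, Col4a5 and Col4a6 and in 35.7% of all. TATAAA was in none of the 5 windows and in 13.6% of all. The window of Col4a1 was 74% G and C, that of Col4a2 73.7%, that of Col4a4 63.3%, that of Col4a5 52.7% and that of Col4a6 48.3%, where the median of all windows was 52.7%. A match is a description of these letters only.

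The arrays were of similar quality, but control replicate 1 had the lowest share of probes well above background (61.9%, the others 64.7% to 66.8%). On each array 75% of probes lay below a signal of 501 to 663 units, 61.9% to 66.8% of probes were well above background, and 0 spots were saturated. All 3 miR-29 arrays shared slide 1 with control replicate 1, while control replicates 2 and 3 were on slide 2, so slide 1 is the only slide that holds both groups. Of 26415 tested probes, 22.7% were lower and 35.3% higher in the miR-29 arrays. With scaling to the 6 spike-in types that were detected, 9927 were lower and 3969 higher, against 5994 and 9329, and the median log2 fold change of all probes moved from 0.072 to -0.17. Of 15 astrocyte markers 14 were well above background on all arrays, and Gjb6 was so on none.

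Most chains were lower after miR-29. Of the 9 tested probes 8, for 4 genes (Col4a1, Col4a2, Col4a5 and Col4a6), fell, 0 rose and 1, that of Col4a4, did not pass, which is 88.9% lower against the 22.7% of all tested probes. Each probe of Col4a1, Col4a2 and Col4a6 was among those that fell. At least 2-fold lower were 4 of the 9 probes, against 3.48% of all tested probes. The levels below are processed signals divided by the 75th percentile of their own array (relative signal), and levels of different probes are not compared, since each probe has its own brightness. In these bulk samples, fewer cells of a type and less RNA per cell cannot be told apart.

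**Figure D1:**
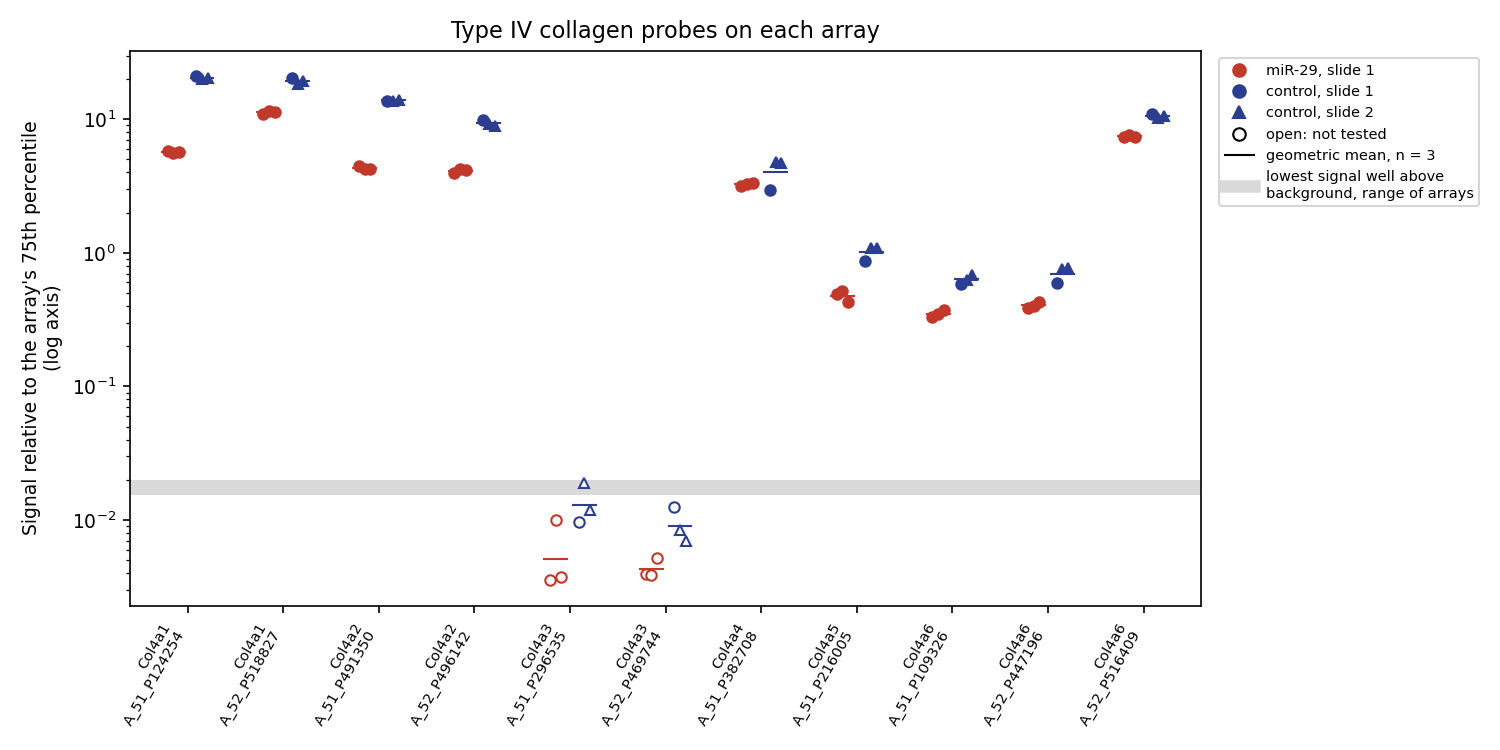
Relative signal (log axis) of each of the 11 type IV collagen probes on each of the 6 arrays, with the geometric mean of each group. Red and blue are separate for the 8 probes that fell, Col4a4 overlaps because control replicate 1 lies at 2.94, and the open Col4a3 points lie at or under the grey range of the lowest signals well above background.

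Col4a1 encodes the chain that, joined with Col4a2, makes up the most widespread network. Its probe A_51_P124254 (transcript NM_009931) read 5.81, 5.63 and 5.72 after miR-29 and 21.1, 20.1 and 20.4 in the controls. The groups were far apart and each was tight, with 5.72 ± 0.0902 after miR-29 and 20.5 ± 0.547 in the controls (SD, n = 3). It fell by 1.84 on the log2 scale (SE 0.0472, 95% interval -1.96 to -1.73, adjusted p = 2.03e-05), or 27.8% of the control level.

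The other Col4a1 probe, A_52_P518827, fell less. It read 11, 11.6 and 11.4 after miR-29 and 20.2, 18.5 and 19.2 in the controls. All miR-29 arrays were below all controls, and the log2 fold change was -0.77 (SE 0.0557, 95% interval -0.90 to -0.63, adjusted p = 0.000147), or 58.8% of the control level. The highest miR-29 array was still well under the lowest control array.

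Col4a2 encodes the partner chain of Col4a1. Its probe A_51_P491350 (NM_009932) read 4.45, 4.22 and 4.25 after miR-29 and 13.8, 13.8 and 13.9 in the controls. The control values spanned both slides and differed little: their SD of 0.00882 on the log2 scale was smaller than that of all but 0.856% of tested probes. The probe fell by 1.69 on the log2 scale (SE 0.0469, 95% interval -1.80 to -1.57, adjusted p = 2.03e-05), to 31.1% of the control level.

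The other Col4a2 probe, A_52_P496142, read 3.94, 4.22 and 4.16 after miR-29 and 9.85, 9.2 and 8.96 in the controls. The groups did not overlap here either. It fell by 1.18 (SE 0.0588, 95% interval -1.33 to -1.04, adjusted p = 5.12e-05), to 44% of the control level.

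Within the distribution of all tested probes, the lower Col4a1 probe had a fold below that of all but 0.5% of probes, and the lower Col4a2 probe below that of all but 0.7%. For the other probes of these genes the share was 2.41% (Col4a2) and 6.79% (Col4a1). Groups that do not overlap were common on these arrays: 26.3% of all tested probes had each miR-29 array below each control array, and 39.8% had each above.

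**Figure D2:**
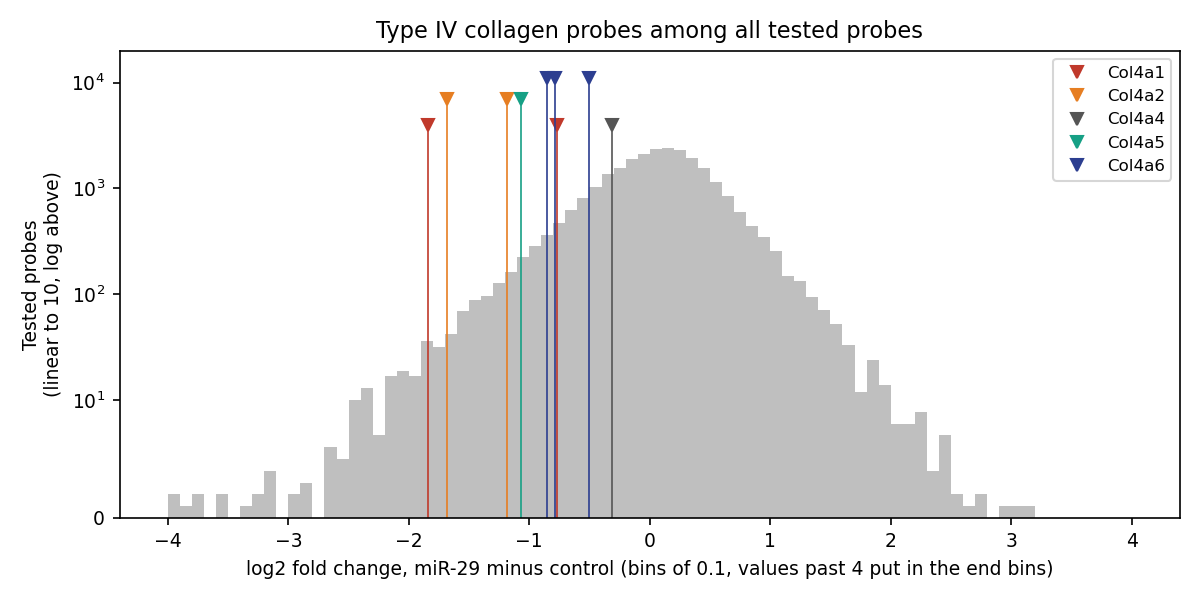
Histogram of the log2 fold change of all 26415 tested probes (bins of 0.1, counts linear to 10 and logarithmic above), with the 9 type IV collagen probes marked by gene. All 9 lie left of 0, from -1.84 (Col4a1) to -0.31 (Col4a4), and the bulk of the probes centres near 0.072.

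Col4a5 encodes the X-linked chain that joins both of the rarer networks and is known for Alport syndrome, a hereditary kidney disease. Its probe A_51_P216005 (NM_007736) read 0.489, 0.52 and 0.431 after miR-29 and 0.874, 1.08 and 1.08 in the controls. Each miR-29 array was below each control array. The probe fell by 1.07 on the log2 scale (SE 0.112, 95% interval -1.34 to -0.80, adjusted p = 0.000519), to 47.7% of the control level. Against control replicate 1, the control array of the same slide, its log2 fold change was -0.87.

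Col4a6, the neighbour of Col4a5 and its partner chain, was read by 3 probes (NM_053185). Probe A_51_P109326 read 0.328, 0.35 and 0.376 after miR-29 and 0.584, 0.629 and 0.686 in the controls. Probe A_52_P447196 read 0.388, 0.403 and 0.429 after miR-29 and 0.591, 0.751 and 0.772 in the controls. Both were lower on each miR-29 array than on any control array, with log2 fold changes of -0.85 (SE 0.0825, adjusted p = 4e-04) and -0.79 (SE 0.113, adjusted p = 0.00179).

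The third Col4a6 probe, A_52_P516409, showed the smallest fall past the threshold among the chains. It read 7.4, 7.64 and 7.4 after miR-29 and 11, 10.3 and 10.5 in the controls. The groups did not overlap, and the log2 fold change was -0.51 (SE 0.0499, 95% interval -0.63 to -0.39, adjusted p = 0.000419), or 70.4% of the control level. Among all tested probes 13.2% had a fold as low or lower.

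Col4a4, a chain of the network known from the kidney glomerulus, did not pass the test. Its only probe, A_51_P382708 (NM_007735), read 3.18, 3.25 and 3.33 after miR-29 and 2.94, 4.77 and 4.68 in the controls. The miR-29 arrays were close together, while control replicate 1 was below all 3 of them and control replicates 2 and 3 above. The log2 fold change was -0.31 (SE 0.19, 95% interval -0.77 to 0.15, adjusted p = 0.2).

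The Col4a4 value rested on control replicate 1. The slide 2 controls exceeded the slide 1 control by 0.68 on the log2 scale, a size above that of 94.9% of tested probes, where the median probe differed by 0.124. Against control replicate 1 alone, on the same slide, the log2 fold change was 0.14 (adjusted p = 0.16). Without control replicate 1 it was -0.54 and passed (adjusted p = 0.000594). In that comparison all miR-29 arrays were on slide 1 and all controls on slide 2, so group and slide cannot be told apart. Slide, array and extraction cannot be told apart for the difference between the controls.

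Col4a3 encodes the chain that holds the Goodpasture autoantigen of kidney and lung, and it was at the limit of detection. Probe A_52_P469744 (NM_007734) read 0.00395, 0.00386 and 0.00516 after miR-29 and 0.0126, 0.00838 and 0.00691 in the controls, and was well above background on 0 of 6 arrays. Probe A_51_P296535 read 0.00353, 0.00996 and 0.00371 after miR-29 and 0.00968, 0.0189 and 0.0119 in the controls, and was well above background on control replicate 2 alone. The lowest relative signal well above background lay between 0.0157 and 0.0197 on the arrays, and with both groups at or under it no fold is given for Col4a3. A fall or rise of this gene was not measurable here, which says nothing of its presence at lower levels.

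The falls of the other chains were also present within slide 1, the slide that holds both groups. With control replicate 1 as the only control, the log2 fold change was -1.89 and -0.84 for the Col4a1 probes and -1.68 and -1.26 for those of Col4a2. For the Col4a6 probes it was -0.74, -0.54 and -0.56. All 8 probes stayed past the threshold on slide 1 alone, with adjusted p from 0.00296 to 0.0128, where the lone control is assumed to vary like the other arrays.

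**Figure D3:**
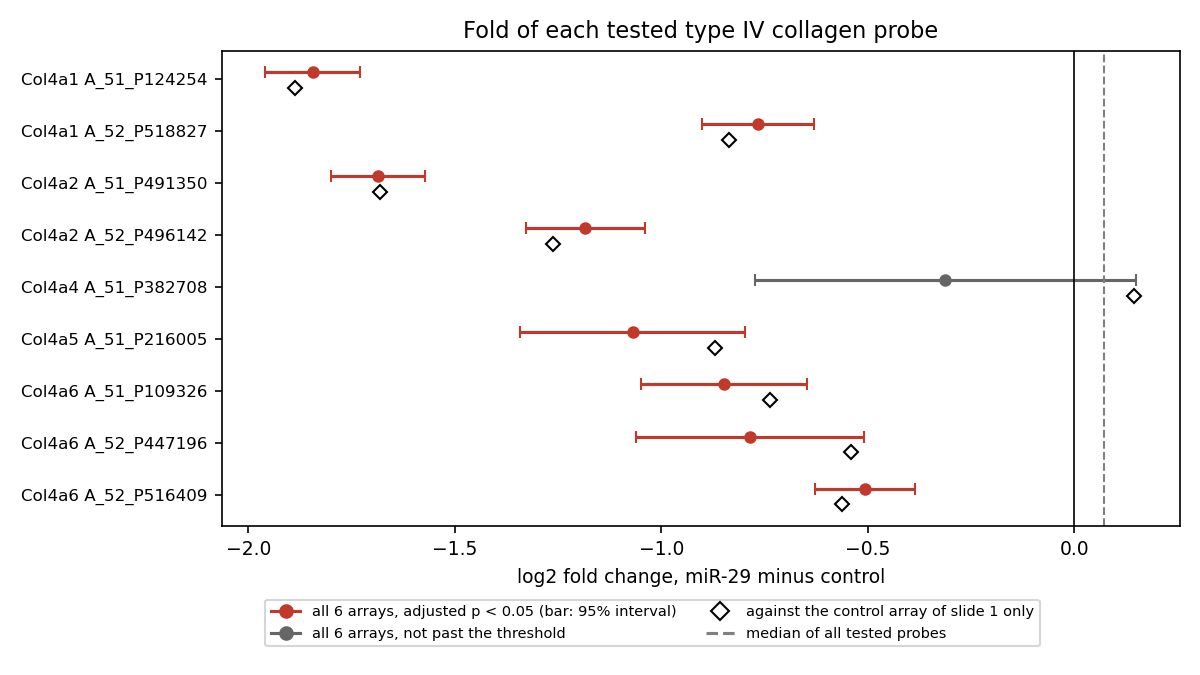
Log2 fold change of each of the 9 tested probes with its 95% interval (all 6 arrays), and the value against the slide 1 control alone as an open diamond. The intervals of 8 probes lie below 0, and only Col4a4 has a diamond on the other side of 0, at 0.14.

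Probes of the same gene did not always report the same fold. This was tested on the within-array difference of each pair of probes, over all 8329 pairs of the 4993 genes with more than 1 tested probe, of which 27.6% differed. Of the 5 pairs among the type IV collagen genes 3 differed. The median size of a pair's difference was 0.202 over all pairs.

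For Col4a1, probe A_51_P124254 fell by 1.08 more than A_52_P518827 (SE 0.0618, 95% interval -1.23 to -0.93, adjusted p = 0.000216). Within each array the probes differed by -0.92, -1.04 and -1 after miR-29 and by 0.06, 0.12 and 0.09 in the controls. The groups were far apart, and this difference was larger than that of 96.7% of all pairs. On slide 1 alone it was -1.05.

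For Col4a2, probe A_51_P491350 fell by 0.50 more than A_52_P496142 (SE 0.0765, adjusted p = 0.00626). Within each array the probes differed by 0.18, 0 and 0.03 after miR-29 and by 0.49, 0.58 and 0.64 in the controls. The groups did not overlap, but with a slide block the difference no longer passed (-0.42, adjusted p = 0.0542). For Col4a6, A_51_P109326 fell by 0.34 more than A_52_P516409 (adjusted p = 0.0473), a call that a slide block also ended (-0.17, adjusted p = 0.36). It was lost too without any 1 array other than control replicate 1 (adjusted p = 0.0523 to 0.145), under quantile normalization (adjusted p = 0.0748) and with a trended, robust eBayes (adjusted p = 0.057). The other Col4a6 pairs had differences of -0.064 (adjusted p = 0.557) and -0.28 (adjusted p = 0.166). Where on the transcripts these probes lie is not analysed here.

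**Figure D4:**
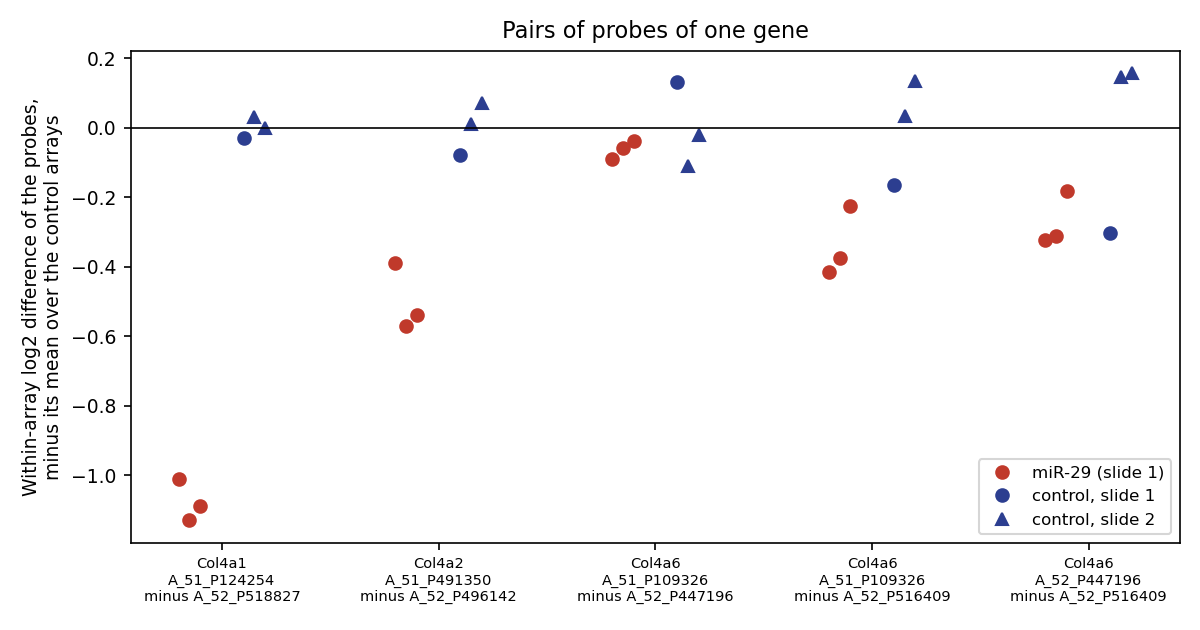
Within-array log2 difference of each pair of probes of 1 gene, shifted so that the control mean is 0, for each of the 6 arrays. The miR-29 points lie near -1.08 for Col4a1 and near -0.50 for Col4a2, and for the Col4a6 pairs they lie closer to the control points, overlapping them in 2 of 3.

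The genes whose profile over the 6 arrays lay nearest to a chain, by Euclidean distance of the values minus the control mean among 13702 genes, were as follows. Spsb4 (distance 0.0577) and Tet3 (0.0611) lay nearest to the brightest Col4a1 probe, where the median gene was at 1.5. Tmem97 (0.105) and Tmem254a (0.127) lay nearest to Col4a2, with a median of 3.05. Kif11 (0.0701) and Tmem189 (0.146) lay nearest to Col4a5, and Micos10 (0.0396) and Gde1 (0.041) to Col4a6. These are likenesses of size and array spread over 6 arrays and say nothing of a shared function.

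Partners of type IV collagen in the basement membrane were mostly lower too. For each gene the brightest tested probe was taken, and of all 13707 genes so represented 24.5% were lower and 37.8% higher, with a median log2 fold change of 0.071. Of 7 tested laminin chains, which form the other network of basement membranes, 5 fell, 0 rose and 2 missed the threshold. Their median was -0.38. Lama3 had a log2 fold change of -0.84, Lama2 of -0.67 and Lama5 of -0.57, and the other probe of Lama3 did not pass (-0.29, adjusted p = 0.296).

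Of 12 tested other basement membrane proteins 10 fell and 0 rose, and 2 missed the threshold (median -0.71). Tinagl1, a matricellular protein of basement membranes, fell by 2.02 (SE 0.0813). Sparc, a glycoprotein that binds collagen, type IV included, fell by 1.42 (SE 0.0761). Col15a1, a collagen that carries sugar chains and sits at the outer face of basement membranes, fell by 1.11 (SE 0.066).

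Of 25 genes for the synthesis, folding, export and cross-linking of type IV and other collagens 17 fell and 4 rose, and 4 missed the threshold (median -0.36). Loxl2, a lysyl oxidase that cross-links the network, fell by 2.91 (SE 0.128), and its other probe fell by 1.29. Serpinh1, the collagen chaperone, fell by 1.34, and Colgalt1, which adds galactose to collagen, fell by 1.28. Mia3, which loads procollagen for export, rose by 0.33, but its other probes did not pass (0.16 and -0.073), and Plod3, a lysyl hydroxylase, rose by 0.29 (0.18 with its other probe, which did not pass). Under spike-in scaling 19 of the 25 fell and 0 rose, and with a slide block 13 fell and 1 rose.

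Of 8 receptors and ligands of type IV collagen 5 fell and 1 rose, and 2 missed the threshold (median -0.47). The integrin chains Itgb3, Itga3 and Itgb1, which link cells to matrix, fell, with -2.38, -0.74 and -0.71 on the log2 scale, while the adhesion receptor Adgrg6, which binds type IV collagen, rose by 0.54. Itga1, a chain of a collagen-binding integrin, had -0.11 (adjusted p = 0.297). Of 9 proteases that cut type IV collagen and their inhibitors 5 fell and 3 rose, and 1 missed the threshold (median -0.77, and -0.47 with normexp background correction). The largest falls were those of the proteases Mmp2, Mmp15 and Mmp14, with log2 fold changes of -2.63, -1.58 and -1.06. The 3 that rose were the inhibitors Timp4 (0.60), Timp2 (0.59) and Timp3 (0.55). The inhibitor Timp1 missed the threshold (-0.132, adjusted p = 0.0759), but its other probe was called lower (-0.153, adjusted p = 0.0429).

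**Figure D5:**
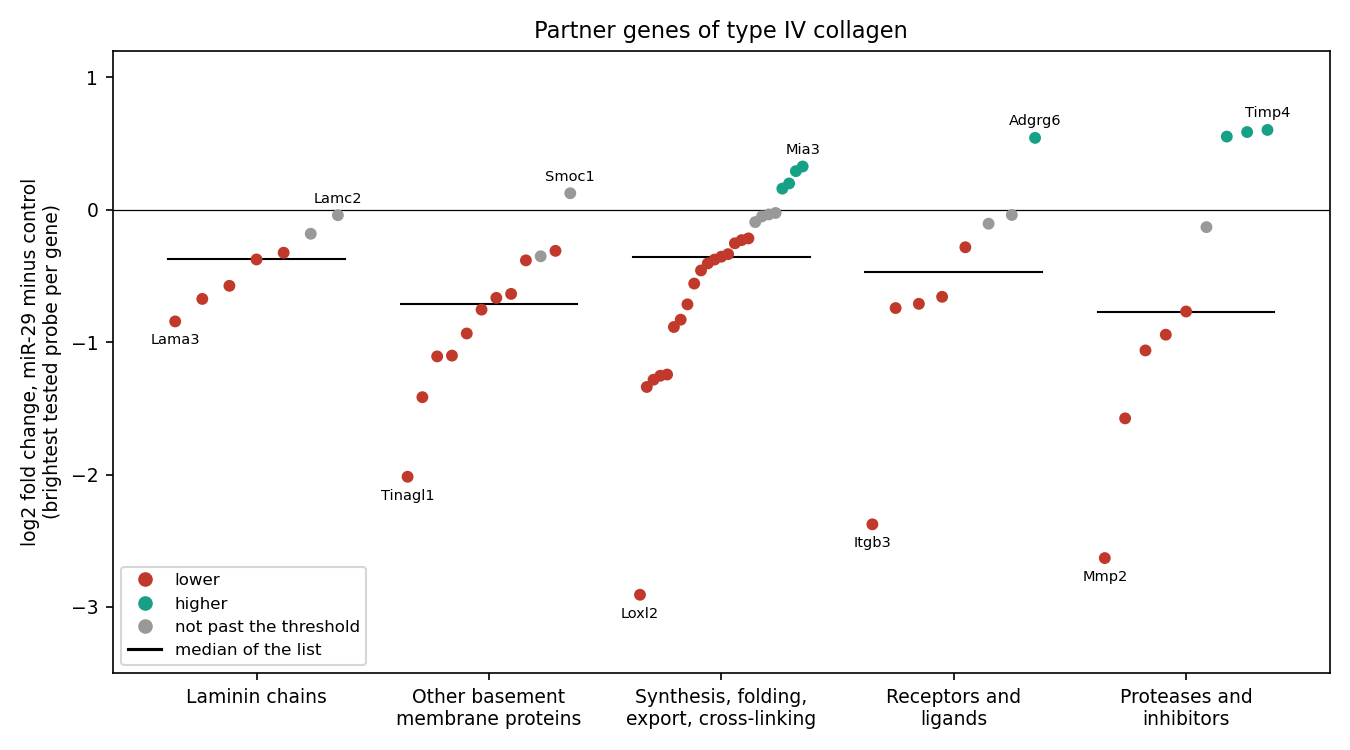
Log2 fold change of the brightest tested probe of each partner gene, by list, with the median of each list as a line and the lowest and highest gene of each list named. Red points were lower, green points higher and grey points not past the threshold, and the medians lie between -0.77 (proteases and inhibitors) and -0.36 (synthesis to cross-linking).

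Cells other than astrocytes make type IV collagen as well, and some of their markers were present. Of 13 pericyte and smooth muscle markers 8 were above background on all arrays, and their summed relative signal was 501 to 549 on the miR-29 arrays and 305 to 342 on the controls, led by Acta2 and Tagln. Rgs5, Kcnj8, Abcc9, Higd1b and Vtn, markers of pericytes, were above background on no array. Of the 8 tested 2 fell and 5 rose, where 24.5% of all genes were lower and 37.8% higher. The sum was carried by the contractile genes Acta2 (0.62 on the log2 scale), Tagln (0.68) and Cnn1 (1.34), which rose. Cspg4 (-1.72, and -1.07 with its other probe) and Pdgfrb (-0.67), markers of pericytes, fell. Notch3 (1.95) and Myh11 (1.61), of the same list, rose, and Anpep (0.12) did not pass.

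Of 15 meningeal and fibroblast markers 13 were above background on all arrays, with sums of 164 to 166 after miR-29 and 205 to 219 in the controls, led by S100a4 and Thy1, and Cdh1 was so on no array. With the main scaling these leading genes moved in opposite directions: S100a4 averaged 44.1 after miR-29 and 102 in the controls, and Thy1 59.2 and 51.4. The rise of Thy1 was small (0.202 on the log2 scale), and its other probe did not pass (0.205, adjusted p = 0.0662). Of 13 tested, 4 fell and 6 rose, beside 24.5% lower and 37.8% higher of all genes. With spike-in scaling 5 fell and 3 rose, beside 9927 lower and 3969 higher of all 26415 tested probes. Of 14 endothelial markers 6 were above background on all arrays, with sums of 3.56 to 3.83 and 4.23 to 4.75, led by Flt1 and Esam, and Pecam1, Tek, Tie1 and Erg were so on no array. Of the 8 tested 3 fell and 3 rose, with a median of 0.009. Ly6c1 (-3.39 on the log2 scale), Slco1a4 (-1.12) and Flt1 (-0.35) fell. Vwf (0.84), Esam (0.33) and Kdr (0.29) rose, where Vwf and Kdr were dim and well above background on only 2 control arrays. Among the 6 above background on all arrays 3 fell and 1 rose, with a median of -0.27. Under spike-in scaling 4 of the 8 tested fell and 1 rose. Of 12 microglia markers 6, namely Aif1, Cx3cr1, Ptprc, C1qa, Trem2 and Tyrobp, were above background on no array.

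The astrocyte markers moved the other way from the chains: 9 of 14 tested rose and 1 fell, with a summed signal of 111 to 122 after miR-29 and 78.1 to 81.5 in the controls, led by Aldoc and Aldh1l1. Of all genes 37.8% were higher and 24.5% lower. With spike-in scaling 5 of the markers rose and 2 fell, beside 3969 higher and 9927 lower of all 26415 tested probes. The part of these cell types in the fall of the chains was not tested.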

How the data were processed

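Per the labels' protocols, RNA was labelled with Cy3 and hybridised to 1-colour Agilent Whole Mouse Genome arrays. The intensity values of the 6 arrays were extracted by the authors with Agilent Feature Extraction (10.7.3.1 per the file headers, 10.7 per the submitters' processing notes), which gives a background-subtracted signal. The deposited value table holds the same signal times 1 factor per array (2.627 to 3.427); its columns had medians of 149.3, 155.4 and 148.8 (miR-29) and 146.3, 164.8 and 162.2 (control), it is linear and not centred, and how the factor was set is unknown. The number of columns of other samples was 0.

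Here the processed signal, raised to 1 where lower, was taken to log2 and each array's 75th percentile subtracted. Control spots and flagged outliers were dropped, and repeated spots averaged per probe. Testing needed all 3 arrays of a group to be well above background, which left 26415 probes. Probes were named through RefSeq accessions (GRCm38.p6): 26933 matched 1 gene and 14241 none. Groups were compared two-sided with limma 3.58.1 (lmFit, eBayes; R 4.3.3), and p-values were adjusted by Benjamini-Hochberg over all probes or all probe pairs, with a threshold of 0.05. Alternatives covered background correction, scaling, filters, slide and replicate blocks and left-out arrays. The procedure was tested on simulated data.

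The members and lists were chosen with earlier results of these data known. Genes named from a list are the 3 largest falls and 2 largest rises past the threshold. For cell types they are the 2 brightest genes and those on no array above background. For each chain past the threshold the 2 nearest genes are named. Timp1, Timp3, Itga1, Cnn1, Cspg4, Pdgfrb, Notch3, Myh11, Anpep, Ly6c1, Slco1a4, Vwf and Kdr were named outside this rule, after their values were seen. The normexp alternative used the median spot signal; a mean spot signal was not used here. The level of the microglia markers above background is not reported here. The number of arrays limits the precision.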

Additional observations from a re-analysis of the deposited data

How the results depend on the processing

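The 8 lower probes kept their direction and call in all 17 alternatives in which they were tested: other background correction and normalization, spike-in scaling, the deposited table, other filters and variance model, slide or replicate number as a block, slide 1 alone, and each array left out. The count was 8 throughout, with 2 exceptions. It was 9 without control replicate 1, where Col4a4 passed, and 9 with no filter on dim probes, where a Col4a3 probe below background passed. Leaving out 1 array gave 8 to 9. Without control replicate 1 the groups lay on different slides, so any result there cannot tell group and slide apart. Col4a4 ranged from -0.557 (spike-in scaling) to 0.144 (slide as a block), where its sign turned without a call. With the mean of all tested probes, Col4a1 had a log2 fold change of -1.305, against -0.766 with its brightest probe, and Col4a6 had -0.713. Of the 5 pairs of probes 3 differed, but 1 with the slide as a block and 1 on slide 1 alone, 2 under quantile normalization and 2 with a trended, robust eBayes, and 2 to 4 with 1 array left out; the pair A_52_P447196 and A_52_P516409 of Col4a6 passed without control replicate 1 (-0.429, adjusted p = 0.00833). The cause was not tested. Over the partner lists 42 genes were lower, 36 to 48 in the alternatives and 39 to 41 with 1 array left out. Spike-in scaling moved the median of the laminins from -0.376 to -0.622, of the synthesis list from -0.355 to -0.6 and of the receptors from -0.471 to -0.716.

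The main test did not treat same-numbered samples as pairs. Deviations of same-numbered arrays correlated at 0.144, 0.099 and 0.271, and each array correlated best with its own number. Arrays with different numbers correlated at -0.241 to 0.031. The pair test was not run with no filter on dim probes. With the replicate block 8 probes, 3 pairs and 41 partner genes were called. Dim probes limit what can be said of Col4a3.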
